A study of Mus musculus with 8 samples.

Results

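Mouse miRNAs with a number of at least 1000 and below 5000 were examined in plasma after treatment with imatinib or doxorubicin. Of 280 such miRNAs on the array, 55 carried the scanner's detection flag on at least 2 of 8 arrays and make up the set described here, selected on that flag alone besides the number, out of 1881 mouse miRNAs on the array and 400 that were flagged on at least 2 arrays. miR-1224-5p was left out by the rule. Because detection chose these miRNAs, their brightness is given as a description, with no test. Female NMRI mice, an outbred stock, aged 3 months, were used for all groups. The IMB group received imatinib, an inhibitor of the ABL, KIT and PDGF receptor tyrosine kinases, by mouth at 100 mg/kg each day for 9 days. The DOX group received doxorubicin, an anthracycline that poisons topoisomerase II, into the tail vein at 3 mg/kg on alternate days for 4 doses, and the CTRL group received the solvents. Blood was taken on the day after the last dose. Each array held Cy3-labelled RNA isolated from 300 µl of pooled plasma of 3 mice, with 3 DOX pools, 3 IMB pools and 2 CTRL pools. The labels call these pools biological replicates, so the errors below are those between pools and not between mice, and the number of arrays limits the precision. In plasma, fewer source cells and less RNA released per cell cannot be told apart.

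A miRNA is a short RNA that Drosha and Dicer cut from a hairpin, and its bases 2 to 8, the seed, guide it to target messages. The name ends in 5p or 3p where the arm of the hairpin has been assigned. miRNA numbers follow the order of registration, so this range holds entries registered after the classic, deeply conserved families. Many of them were read from small-RNA libraries of mouse, some lie in introns, and several have no known role. Among those with a described role, miR-2861 and miR-3960 are clustered miRNAs studied in osteoblast differentiation, miR-1306 shares its locus with Dgcr8, the partner of Drosha, and miR-3072 lies in the imprinted Dlk1-Dio3 region.

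The sequences below are those of miRNAs on which the results turn: the brightest, those whose pools separated by group, and those that share long runs of bases. miR-3473g, miR-3102-5p.2-5p and miR-1198-5p are listed beside them. They are from RefSeq, build GRCm38.p6, which matched 48 of the 55 miRNAs by name. Capitals mark the seed.
miR-3473b: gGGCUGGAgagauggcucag
miR-3473e: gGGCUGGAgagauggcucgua
miR-3473a: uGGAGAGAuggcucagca
miR-3473f: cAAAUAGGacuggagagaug
miR-3473g: cAAAAGUGaggcuggggaga
miR-1187: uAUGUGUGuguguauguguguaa
miR-3082-5p: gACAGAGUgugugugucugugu
miR-3102-5p: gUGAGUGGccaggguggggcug
miR-3102-5p.2-5p: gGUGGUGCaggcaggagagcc
miR-3963: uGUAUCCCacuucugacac
miR-3968: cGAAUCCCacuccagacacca
miR-3474: cCCUGGGAggagacguggauuc
miR-2861: gGGGCCUGgcggcgggcgg
miR-2137: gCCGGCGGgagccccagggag
miR-1249-3p: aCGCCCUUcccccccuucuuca
miR-3067-3p: cCAAGCGGcugcccugggagagg
miR-1982-5p: uUGGGAGGguccuggggagg
miR-3072-5p: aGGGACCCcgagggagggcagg
miR-1198-5p: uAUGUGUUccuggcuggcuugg
The miRNAs miR-1897-5p, miR-1901, miR-1907, miR-1966-5p, miR-3113-5p, miR-3470a and miR-3960 are named only.

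The 48 mature sequences were 18 to 25 bases long and lay on 18 chromosomes, 7 of the miRNAs on X, and 36 lay within the span of a protein-coding gene. Their median content of G and C was 63.6%, from 34.8% in miR-1187 to 94.7% in miR-2861. It was 47.6% over the 184 matched miRNAs numbered below 1000 or named let-7, and 63.4% over the 108 matched miRNAs numbered 5000 and above. An arm was given as 5p for 18 of the 55 (32.7%), as 3p for 13 (23.6%) and not at all for 24 (43.6%). Below 1000, 99 names carried 5p, 99 carried 3p and 22 carried no arm, so the later numbers hold a larger share of names without an arm. At 5000 and above the counts were 73, 14 and 37.

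Among the brightest, miR-3473b lies at chr10:41670774-41670793 on the plus strand within Ccdc162, and miR-3963 at chr3:151023839-151023857 on the minus strand outside protein-coding genes. miR-3474 lies at chr2:158638583-158638604 (plus) within Actr5, and miR-2137 at chrX:72992113-72992133 (plus) within Zfp185. miR-2861 lies at chr2:32712819-32712837 (minus), outside protein-coding genes. The 2 miRNAs of the Mir3102 hairpin adjoin each other within Arhgef17, miR-3102-5p.2-5p at chr7:100882367-100882387 and miR-3102-5p at chr7:100882388-100882409, both on the minus strand. miR-1249-3p lies at chr15:84951545-84951566 (minus) within 5031439G07Rik, and miR-3067-3p at chr12:81166201-81166223 (plus) within Smoc1, a gene of an extracellular matrix protein. miR-1982-5p lies at chr10:80828808-80828827 (plus) within Oaz1, which encodes ornithine decarboxylase antizyme. miR-1187 lies at chr5:82798964-82798986 (minus), outside protein-coding genes, and miR-3082-5p at chr17:25831406-25831427 (minus) within Jmjd8 and Stub1.

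Most of the set was flagged in every pool (76.4%). The share was the same below 1000 or named let-7 (76.4%) and 68.5% at 5000 and above. The flag was present on all 8 arrays for 42 miRNAs, on 5 to 7 arrays for 7, on 3 arrays for miR-1967 and miR-3058-3p, and on 2 arrays for miR-3059-3p, miR-3085-5p, miR-3093-3p and miR-3572-5p. Just inside the rule, the highest scaled signal of the 4 miRNAs flagged on 2 arrays ran from 7.77 to 16.1, and just outside it that of the 4 flagged on 1 array (miR-1839-3p, miR-1929-3p, miR-1957b and miR-3075-5p) ran from 4.66 to 7.32. The values used below are log2 of the scaled signal, averaged over the probes of a miRNA, with a floor of 4.40 (a signal of 21.1) below which values have no order. On that scale 33 of the 55 lay above the floor on all arrays and 18 at the floor on all arrays. The 4 others, miR-1896, miR-1945, miR-3620-3p and miR-3620-5p, were at the floor on some.

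The signal of a probe depends on its sequence as well as on the amount of RNA, so the order of brightness is not an order of copies. The 33 miRNAs above the floor had a median level of 7.15, against 6.61 for 132 miRNAs numbered below 1000 or named let-7 and 6.07 for 64 numbered 5000 and above. Their highest level, 11.60 for miR-3960, lay below the highest in those sets, 14.62 and 12.62. The set made up 11.7% to 15.2% of the summed signal of the detected miRNAs on an array: 11.7% and 13.9% in CTRL, 13.7%, 15.2% and 14.6% in DOX, and 11.9%, 12.7% and 13.3% in IMB. These shares overlapped between the DOX and CTRL pools and between the IMB and CTRL pools, while all DOX shares lay above all IMB shares. That order was not particular to the set. Among miRNAs numbered 5000 and above, the lowest DOX share was 30.3% and the highest IMB share 29.5%. Below 1000 or named let-7 the order was reversed, with a highest DOX share of 53.5% and a lowest IMB share of 55.5%. All these shares are parts of the same summed signal, so they are not independent. The spread between pools was like that elsewhere on the array, with a median SD within groups of 0.24 for the 33 miRNAs and 0.24 in each of the other sets.

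**Figure D1:**
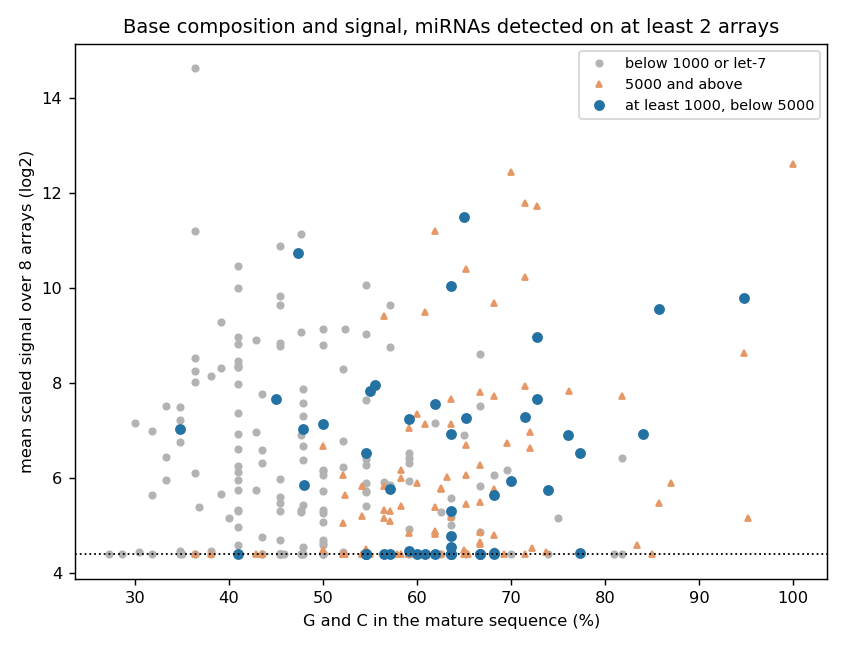
Mean log2 scaled signal over 8 arrays (y axis) against the content of G and C in the mature sequence in percent (x axis) for miRNAs flagged on at least 2 arrays and matched to RefSeq, 1 point each, with the floor as a dotted line. The miRNAs of the set (blue) had a median of 63.6% G and C, near the 63.4% of those numbered 5000 and above (orange) and above the 47.6% of those below 1000 (grey).

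The 8 brightest miRNAs were miR-3960, miR-3473b, miR-3963, miR-3474, miR-2861, miR-2137, miR-1897-5p and miR-3102-5p. miR-3960, of the osteoblast cluster, was 11.31 and 11.66 in CTRL, 11.64, 11.76 and 11.46 in DOX and 12.37, 11.57 and 11.02 in IMB. The IMB pools held both the highest and the lowest of the 8 values, so the groups overlapped, with means of 11.49 ± 0.25 (SD, n = 2), 11.62 ± 0.15 (SD, n = 3) and 11.66 ± 0.68 (SD, n = 3). miR-3473b was 11.70 and 11.24 in CTRL, 11.70, 11.81 and 11.26 in DOX and 10.79, 11.85 and 11.64 in IMB. Its lowest value was in IMB pool 1, and the groups overlapped. miR-3963 was 10.46 and 10.98 in CTRL, 10.63, 11.01 and 11.00 in DOX and 10.66, 10.23 and 10.88 in IMB, with no group apart. miR-1897-5p was 8.94 and 9.37 in CTRL, 9.03, 9.34 and 9.49 in DOX and 8.43, 8.75 and 9.11 in IMB. Its lowest values were in IMB pools 1 and 2, while IMB pool 3 lay within the range of both other groups.

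The next 9 by brightness were miR-3473a, miR-3473g, miR-1895, miR-3473f, miR-3473e, miR-3102-5p.2-5p, miR-3081-5p, miR-1892 and miR-3082-5p, with means from 7.97 to 7.15. Means from 7.04 to 6.52 belonged to miR-1187, miR-3095-3p, miR-1904, miR-3077-5p, miR-3547-5p, miR-3072-5p and miR-3098-5p. The dimmest above the floor were miR-3470a, miR-1982-5p, miR-3472, miR-3968, miR-3067-3p, miR-3154, miR-1249-3p, miR-3113-5p and miR-1894-3p, from 5.95 to 4.79. The steadiest of all 33 was miR-1895, which lies within Cxxc4 and ran from 7.53 to 7.78 over the 8 arrays, a range of 0.25. The widest range, 1.74, was that of miR-3474. Of the list of conserved or widely expressed miRNAs, miR-1249-3p lay above the floor and miR-1839-5p at it. The others on that list, miR-1843a, miR-1843b, miR-1981, miR-1964 and miR-1968, were not in the set. None of those listed as encoded opposite another miRNA gene (miR-3074 and miR-3107) was in the set.

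**Figure D2:**
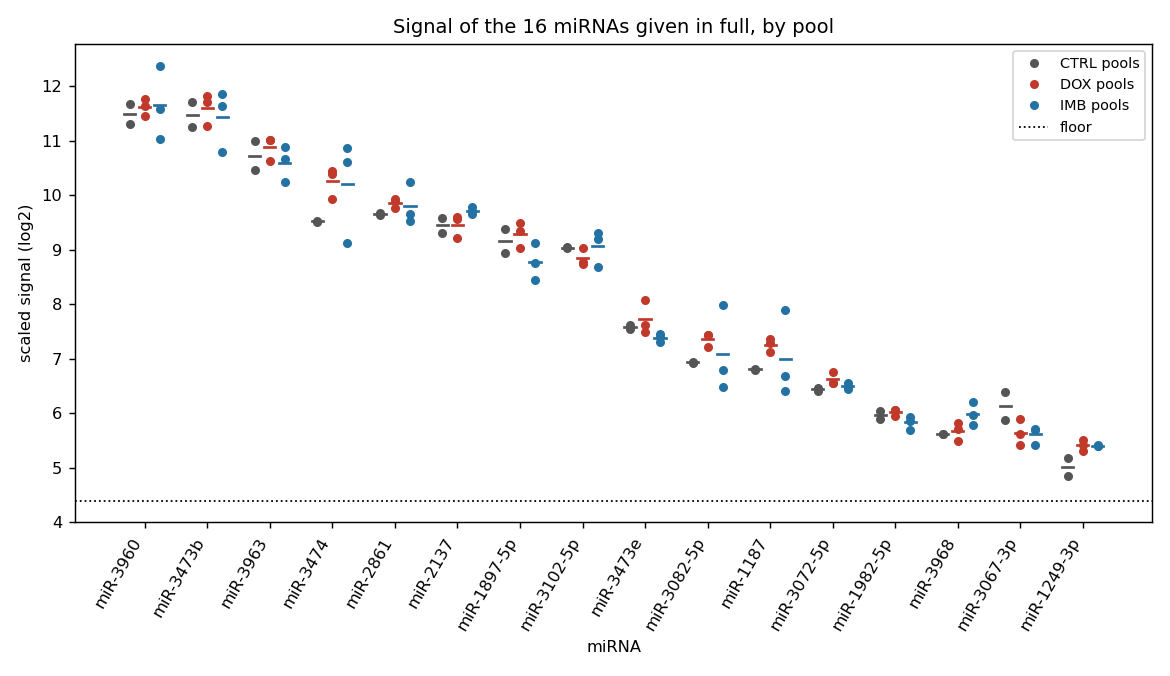
Log2 scaled signal (y axis) of the 16 miRNAs given in full (x axis, brightest at the left), 1 point per pool and a bar at each group mean, for 2 CTRL, 3 DOX and 3 IMB pools, with the floor of 4.40 dotted. The IMB pools of miR-3960 spread from 11.02 to 12.37, and both CTRL pools of miR-3474 lie below all of its DOX pools.

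The differences between groups were small, and none of these miRNAs passed the test in any comparison. The test was limma over 294 miRNAs, with Benjamini-Hochberg adjustment and a threshold of 0.05. Of the 55 miRNAs, 40 entered it because at least 1 group detected them on each of its arrays by the spot rule, 34 of them in all groups. The spot rule is not the scanner's flag, which 3 miRNAs that did not enter carried on all 8 arrays. miR-1306-3p, miR-1839-5p, miR-1896 and miR-3099-3p entered through the CTRL pools alone, miR-1894-3p through CTRL and DOX, and miR-3620-5p through CTRL and IMB. The 15 that did not enter were miR-1231-5p, miR-1901, miR-1906, miR-1907, miR-1945, miR-1966-5p, miR-1967, miR-3058-3p, miR-3059-3p, miR-3085-3p, miR-3085-5p, miR-3092-3p, miR-3093-3p, miR-3572-5p and miR-3620-3p. Of those tested, miR-1198-5p, miR-1306-3p, miR-1839-5p, miR-1934-3p and miR-3099-3p were at the floor on all arrays and have a difference of 0.

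In IMB against CTRL, 0 of 40 were called, where 1.02% of all tested miRNAs were, and the smallest limma adjusted p was 0.26. Without adjustment 2 had limma p under 0.05, against 7.82% of all tested. In DOX against CTRL, 0 of 40 were called, where 0.340% of all tested were, with a smallest limma adjusted p of 0.31 and 2 under 0.05 without adjustment, against 8.50%. In IMB against DOX, 0 of 40 were called, where 1.02% of all tested were, with a smallest limma adjusted p of 0.41 and 0 under 0.05 without adjustment, against 10.9%. With limma's intensity trend the count was also 0 in each comparison.

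The median difference over the 40 was 0.00 in IMB minus CTRL, 0.02 in DOX minus CTRL and -0.04 in IMB minus DOX, and over all 294 it was 0.01, 0.00 and 0.00. The median size of a difference without its sign was 0.13, 0.11 and 0.13, against 0.14 in each comparison over all tested. All but 3, 1 and 2 of the 40 differed by less than 0.5 on the log2 scale, and differences ran from -0.52 to 0.68, from -0.49 to 0.73 and from -0.52 to 0.63. In IMB minus CTRL 18 were above 0 and 17 below, in DOX minus CTRL 21 and 13, and in IMB minus DOX 13 and 22. The 2 drug comparisons share the control pools, so their signs are not independent.

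Pools of the 2 groups did not overlap for a few miRNAs. All IMB pools lay above both CTRL pools for 3 of 40 (7.5%, against 10.9% of all tested) and below them for 2 (5.0%, against 6.80%). All DOX pools lay above both CTRL pools for 6 (15%, against 18.7%) and below them for 1 (2.5%, against 9.86%). All IMB pools lay above all DOX pools for 1 (2.5%, against 6.80%) and below them for 3 (7.5%, against 8.16%). None of these shares exceeded that of all tested miRNAs.

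**Figure D3:**
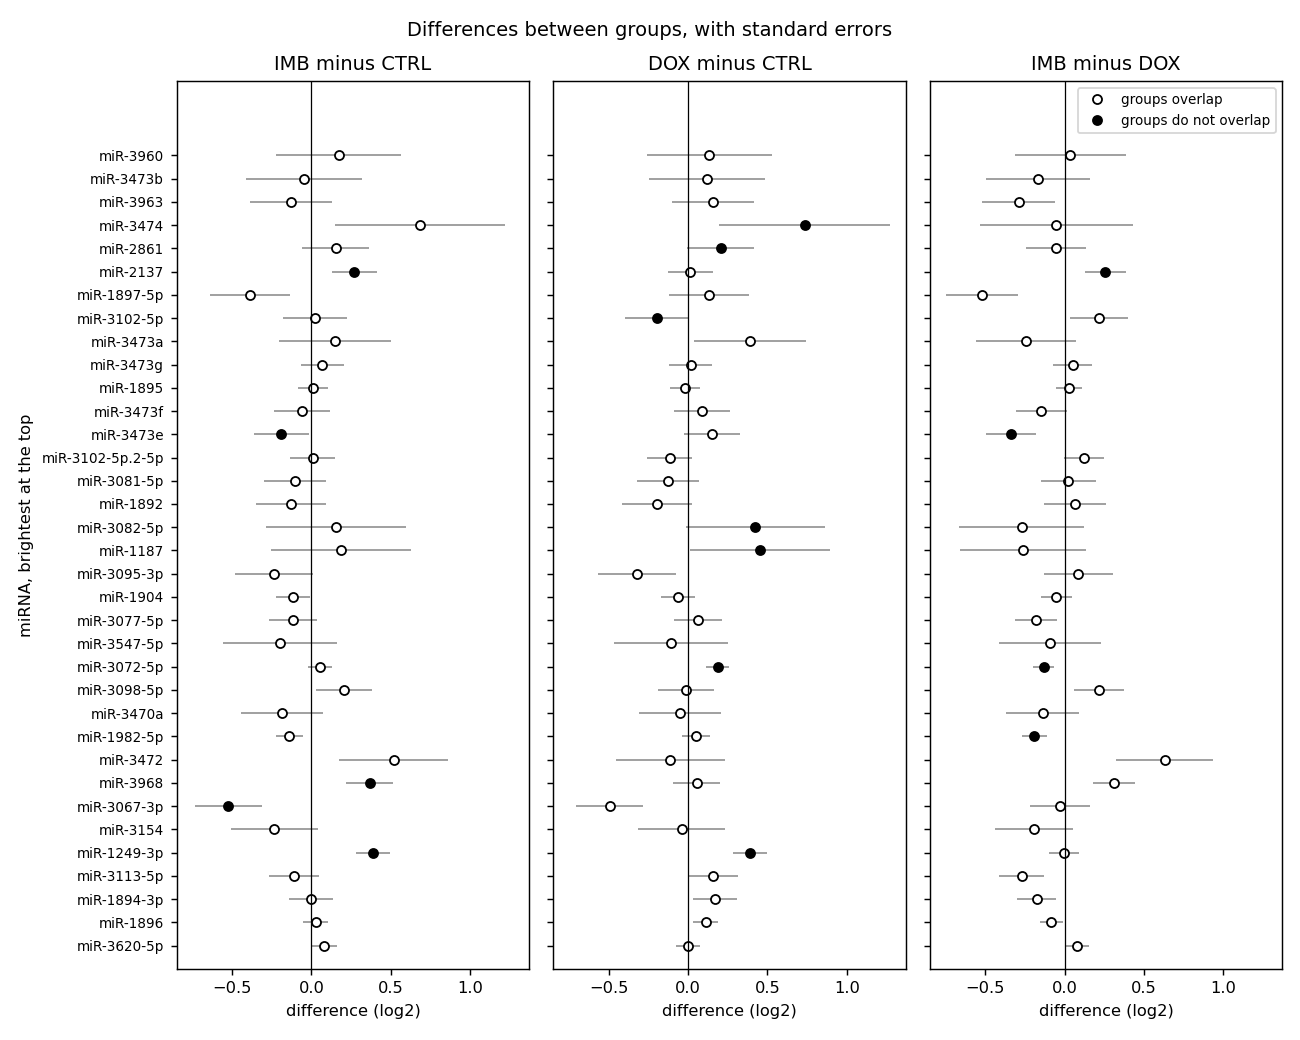
Difference on the log2 scale (x axis) with its standard error for the 35 tested miRNAs not at the floor on all arrays (y axis, brightest at the top), in IMB minus CTRL, DOX minus CTRL and IMB minus DOX, with filled points where the pools of the 2 groups did not overlap. The points lie between -0.52 and 0.73, and none passed limma's threshold.

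In IMB against CTRL the separated miRNAs were miR-1249-3p, miR-3968 and miR-2137 on the higher side and miR-3067-3p and miR-3473e on the lower. miR-1249-3p, of the conserved list, was 4.85 and 5.18 in CTRL, 5.41, 5.39 and 5.41 in IMB and 5.50, 5.42 and 5.30 in DOX. Every drug-treated pool lay above both control pools, and the IMB pools lay close together (SD 0.0076). IMB minus CTRL was 0.39 (SE 0.11), a 1.31-fold higher mean with limma adjusted p = 0.26. DOX minus CTRL was 0.39 (SE 0.11, limma adjusted p = 0.31), from the same control pools, and with no scaling of the arrays it was -0.029. Over 22 other settings, pools left out included, IMB minus CTRL ran from 0.21 to 0.56, and without CTRL pool 1 the drug differences were 0.22 (IMB) and 0.23 (DOX).

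miR-3968, within Trim80, was 5.61 and 5.62 in CTRL, 5.97, 5.78 and 6.21 in IMB and 5.81, 5.71 and 5.50 in DOX. The IMB pools lay above both CTRL pools, and the DOX pools lay on both sides of the controls. DOX pool 1 lay above IMB pool 2. IMB minus CTRL was 0.37 (SE 0.15), 1.29-fold, with limma adjusted p = 0.58, and 0.23 with normexp background correction. miR-2137 was 9.58 and 9.31 in CTRL, 9.56, 9.60 and 9.22 in DOX and 9.64, 9.71 and 9.79 in IMB. All IMB pools lay above all other pools, by 0.27 (SE 0.14, limma adjusted p = 0.76) against CTRL and by 0.26 (SE 0.13, limma adjusted p = 0.49) against DOX. With 1 pool left out the difference from CTRL ran from 0.14 to 0.40, and that from DOX was 0.14 without DOX pool 3.

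miR-3067-3p was 6.38 and 5.88 in CTRL, 5.69, 5.42 and 5.72 in IMB and 5.62, 5.89 and 5.41 in DOX. CTRL pool 1 stood above all other pools, and CTRL pool 2 was level with DOX pool 2. IMB minus CTRL was -0.52 (SE 0.21), a 1.44-fold lower mean with limma adjusted p = 0.58, and -0.27 without CTRL pool 1 and -0.22 with normexp. miR-3473e was 7.54 and 7.61 in CTRL, 7.61, 8.08 and 7.49 in DOX and 7.45, 7.40 and 7.31 in IMB. The IMB pools were the lowest, and DOX pool 2 was the highest. IMB minus CTRL was -0.19 (SE 0.18, limma adjusted p = 0.87), and IMB minus DOX was -0.34 (SE 0.16, limma adjusted p = 0.45). The latter was -0.16 without DOX pool 2 and -0.031 with no scaling.

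In DOX against CTRL the separated miRNAs were miR-3474, miR-1187, miR-3082-5p, miR-1249-3p, miR-2861 and miR-3072-5p on the higher side and miR-3102-5p on the lower. miR-3474 was 9.53 and 9.50 in CTRL, 10.38, 9.93 and 10.45 in DOX and 9.12, 10.62 and 10.86 in IMB. IMB pools 2 and 3 were the highest of all pools and IMB pool 1 the lowest. DOX minus CTRL was 0.73 (SE 0.54), 1.66-fold, with limma adjusted p = 0.85, and 0.31 with no scaling. The SE takes in the spread of the IMB pools (SD 0.94), since all groups share 1 estimate, while the SD was 0.28 in DOX and 0.02 in CTRL.

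miR-2861, the partner of miR-3960 in the osteoblast cluster, was 9.64 and 9.67 in CTRL, 9.89, 9.93 and 9.77 in DOX and 10.24, 9.66 and 9.53 in IMB. The DOX pools lay just above the CTRL pools and the IMB pools on both sides of them. DOX minus CTRL was 0.20 (SE 0.21, limma adjusted p = 0.93) and -0.22 with no scaling, and it was 0.017 in the authors' table. miR-3102-5p was 9.03 and 9.04 in CTRL, 8.76, 9.03 and 8.73 in DOX and 8.68, 9.20 and 9.30 in IMB. DOX pool 2 lay at the level of the controls, and the difference was -0.20 (SE 0.20, limma adjusted p = 0.93), or -0.62 with no scaling. Its probes did not agree on the size, with -0.26 by the brighter and -0.03 by the dimmer. The adjoining miR-3102-5p.2-5p had means of 7.33 ± 0.12 (SD, n = 2) in CTRL, 7.21 ± 0.20 (SD, n = 3) in DOX and 7.34 ± 0.14 (SD, n = 3) in IMB.

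In IMB against DOX the separated miRNAs were miR-2137 on the higher side and miR-3473e, miR-1982-5p and miR-3072-5p on the lower. miR-1982-5p was 6.05, 6.06 and 5.95 in DOX, 5.70, 5.94 and 5.86 in IMB and 5.89 and 6.05 in CTRL. DOX pool 3 and IMB pool 2, the nearest pools of the drugs, were almost level. The difference was -0.19 (SE 0.08, limma adjusted p = 0.41), -0.12 without IMB pool 1 and 0.12 with no scaling. miR-3072-5p was 6.56, 6.76 and 6.55 in DOX, 6.48, 6.55 and 6.44 in IMB and 6.41 and 6.47 in CTRL, so that the separation again rested on neighbouring values. Its difference was -0.13 (SE 0.07, limma adjusted p = 0.49), -0.065 without DOX pool 2 and 0.17 with no scaling.

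miR-1187 and miR-3082-5p share the 10-base run gugugugugu, though their genes lie on chromosomes 5 and 17, and varied closely together over the pools. miR-1187 was 6.80 and 6.81 in CTRL, 7.36, 7.12 and 7.28 in DOX and 7.90, 6.68 and 6.40 in IMB. miR-3082-5p was 6.94 and 6.92 in CTRL, 7.43, 7.21 and 7.43 in DOX and 7.99, 6.79 and 6.48 in IMB. In each, the DOX pools lay above the controls, IMB pool 1 was the highest of all pools, and IMB pools 2 and 3 were the lowest. Each ran over 1.5 and 1.51 on the log2 scale, while their difference (miR-1187 minus miR-3082-5p) stayed from -0.15 to -0.08, a range of 0.07.

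Over the 406 pairs that the 29 matched miRNAs above the floor form, the median range of such a difference was 0.98 and the 5th percentile 0.40, and this pair had the smallest. How far each probe also binds the other sequence was not tested. DOX minus CTRL was 0.45 (SE 0.44) for miR-1187 and 0.42 (SE 0.44) for miR-3082-5p, with limma adjusted p of 0.92 and 0.93, and 0.029 and 0.0032 with no scaling. IMB minus DOX was -0.26 (SE 0.39) and -0.27 (SE 0.39), with limma adjusted p of 0.91 and 0.90. Without IMB pool 1 it was -0.72 (SE 0.11) and -0.72 (SE 0.12), both past the threshold with limma adjusted p = 0.049. The share of all tested miRNAs past it in that setting is not given here. Without IMB pool 3 it was 0.035 and 0.034. Over 22 other settings the adjusted p ran from 0.049 to 1 for each.

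Some miR-3473 miRNAs share longer runs, and they did not all vary alike. miR-3473b and miR-3473e, the only pair in the set with the same seed (GGCUGGA) among the 48 matched, share 18 bases in a row, gggcuggagagauggcuc. miR-3473b was the brighter by 3.34 to 4.44, a range of 1.1, which exceeded the range of either alone (1.06 and 0.77). miR-3473a and miR-3473b have different seeds but share 16 bases, uggagagauggcucag, and their difference ran over 0.51, less than the 1.09 and 1.06 of each. miR-3473a was 7.84 and 7.69 in CTRL, 8.35, 8.29 and 7.82 in DOX and 7.26, 8.34 and 8.13 in IMB. Like miR-3473b it was lowest in IMB pool 1, where miR-3473e was at 7.45 and not apart from the other IMB pools. miR-3473f, which shares 11 bases with miR-3473b and with miR-3473e and 10 with miR-3473a, ran over 0.51. miR-3473g shares no run of at least 9 bases with the other miR-3473 miRNAs and ran over 0.38. The 13 pairs with a shared run of at least 9 bases had a median range of 1.1, against 0.98 over the other 393.

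**Figure D4:**
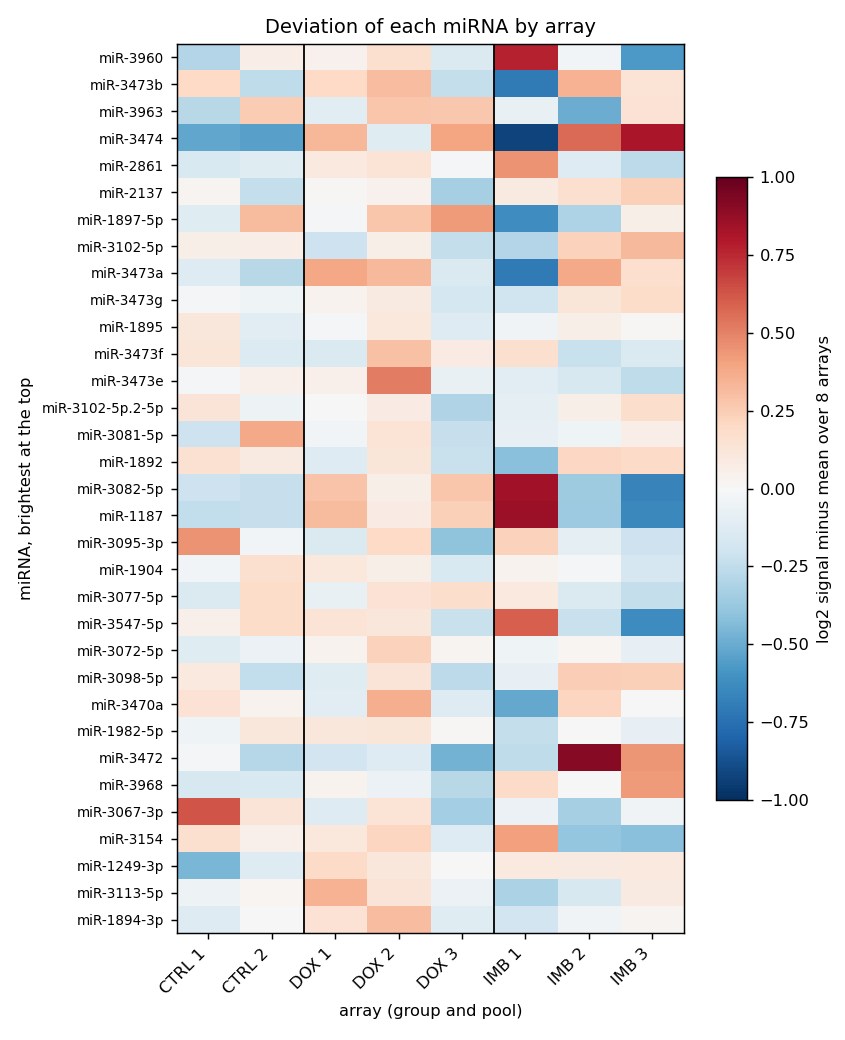
Log2 scaled signal minus the mean over 8 arrays (colour scale) for the 33 miRNAs above the floor on all arrays (rows, brightest at the top) and each pool (columns). Columns of 1 group differ most within IMB: IMB pool 1 is the highest for miR-1187, miR-3082-5p and miR-3960 and the lowest for miR-3474, miR-3473b and miR-3473a.

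The extreme values were spread unevenly over the pools. IMB pool 1 held the lowest value of 11 of the 33 miRNAs and the highest of 6, IMB pool 3 the lowest of 9 and the highest of 6, and DOX pool 3 the lowest of 9. DOX pool 2 held the highest of 7. IMB pool 1 also had the lowest 75th percentile of signal before scaling, 196, where the other pools ran from 213 to 425, and 45 of the 55 miRNAs were flagged in it, where counts ran from 44 to 54. CTRL pool 1 held the lowest value of 2 miRNAs and CTRL pool 2 of 0.

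Markers of blood and tissue cells also differed between the pools. The red cell index, log2 miR-451a minus log2 miR-23a-3p, was 3.84 and 3.18 in CTRL, 3.15, 2.68 and 2.73 in DOX and 3.91, 4.45 and 3.90 in IMB, so that the groups did not overlap. All 4 red cell markers were detected on every array, with a summed level of 14.46 to 15.20 in CTRL, 14.13 to 14.72 in DOX and 14.96 to 15.30 in IMB. Both myeloid markers were detected, at 10.47 to 10.84, 10.72 to 10.90 and 10.13 to 10.55. The liver marker miR-122-5p was at 9.67 to 9.94, 10.17 to 10.87 and 9.25 to 11.23, and the endothelial miR-126a-3p at 9.46 to 9.54, 9.87 to 10.05 and 8.96 to 9.97. Of 3 muscle markers 1 was detected on every array, and 1 was at the floor on all. In both CTRL pools all 3 were at the floor, so their sum of 5.98 there is set by the floor and is not a measured level. The sum was 6.27 to 7.74 in DOX and 6.28 to 9.54 in IMB. The part of these markers in the differences above was not tested.

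The probes of a miRNA mostly gave the same picture of the differences. The set is read by 113 probes, 2 each for 53 of the 55 miRNAs, of which 65 were detected on all arrays and 22 on none. At least 2 probes were detected on all arrays for 29 miRNAs, 1 probe for 5 and none for 21. Over the 29, the brightest probe exceeded the dimmest 1.17-fold in the median, by less than 1.5-fold in 20 and by at least 2-fold in 8. The difference between groups differed between probes by 0.04, 0.03 and 0.03 in the median for IMB minus CTRL, DOX minus CTRL and IMB minus DOX, and had the same sign in 27, 26 and 27 of 29. The median coefficient of variation between spots of a detected probe was 7.37%.

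The probes of miR-3473e differed most in level, 8.92-fold, followed by those of miR-3473a (8.08-fold) and miR-2137 (6.07-fold). Some of their differences were nevertheless close. For miR-3473e IMB minus DOX was -0.34 by the brighter probe and -0.29 by the dimmer, and for miR-2137 IMB minus CTRL was 0.26 and 0.31. DOX minus CTRL was less alike, at 0.16 and 0.03 for miR-3473e and at -0.004 and 0.12, of opposite sign, for miR-2137. The probes of miR-1249-3p gave 0.38 and 0.39 in IMB minus CTRL, and those of miR-3067-3p -0.52 and -0.53. The widest disagreement was in miR-3547-5p, within Baiap3, where IMB minus CTRL was -0.10 by the brighter probe and -0.77 by the dimmer. Its brighter probe gave a scaled signal of 330.8 in IMB pool 1, the highest of its 8 values, while the dimmer gave 33.7 there, within its range of 23.9 to 53.7.

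**Figure D5:**
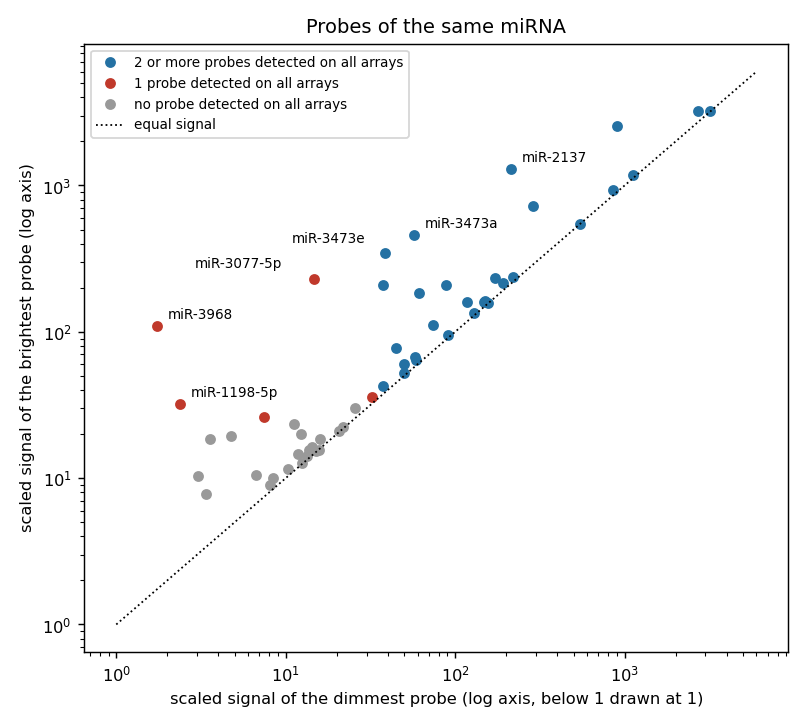
Mean scaled signal of the brightest probe (y axis) against that of the dimmest (x axis) for the 55 miRNAs, both on log axes, coloured by how many probes were detected on all arrays, with equal signal dotted. Most points lie near the line, miR-3473e and miR-3473a lie 8.92-fold and 8.08-fold above it, and miR-3968 and miR-1198-5p have 1 probe near background.

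For some miRNAs a single probe carried the signal. miR-3968 was read at a scaled signal of 89.6 to 145.3 by 1 probe, while the other was detected on no array. miR-1198-5p, within Gripap1 and singled out after its values were seen, was read at 22.3 to 36.6 by 1 probe and was not detected by the other, so the mean over its probes lay at the floor. By its brighter probe alone its level was 4.48 and 4.82 in CTRL, 5.19, 5.16 and 5.04 in DOX and 4.92, 5.19 and 5.09 in IMB. Every drug-treated pool lay above both control pools, by 0.42 (SE 0.15, limma adjusted p = 0.39) in IMB minus CTRL and 0.48 (SE 0.15, limma adjusted p = 0.34) in DOX minus CTRL. Over 22 settings the limma adjusted p ran from 0.13 to 1 and from 0.25 to 1, and under the main settings, with both probes averaged, the difference is 0 because every pool is at the floor. miR-1934-3p, at chr11:69663092-69663113 (plus) and likewise singled out, was read at 22.5 to 30.1 by 1 probe and detected on no array by the other. By the brighter probe it was 4.51 and 4.49 in CTRL, 4.89, 4.73 and 4.58 in DOX and 4.91, 4.76 and 4.73 in IMB. All treated pools again lay above the controls, by 0.30 (SE 0.13, limma adjusted p = 0.55) for IMB and 0.23 (SE 0.13, limma adjusted p = 0.60) for DOX. Over 22 settings its limma adjusted p ran from 0.13 to 1 and from 0.42 to 1. By its brighter probe miR-1896 showed the same order, at the floor of 4.40 in both CTRL pools and from 4.42 to 4.74 in the treated pools. All these signals lie near the floor, and the share of all tested miRNAs with this order by the brighter probe is not given here.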

How the data were processed

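Plasma miRNAs were measured on 8 one-colour Agilent arrays on 1 slide. Per the submitters' processing notes, spots were read with Agilent Feature Extraction 11.5.1.1. Spot intensity in the deposited files is linear and background-subtracted, per the file headers. The authors' deposited table holds log2 values per miRNA, with a normalization not given in the labels or headers. Its column medians were -3.32 to -3.20, and it served as an alternative. The deposited flags for detection and outlier spots are codes of 0 and 1.

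Processed signals were averaged over non-outlier spots of a probe (7 to 30 spots). A probe was detected where over 50% of its spots were well above background. Arrays were scaled to the 75th percentile of 454 probes detected in every pool. The probes of each miRNA were then averaged, floored at 21.1 and put on the log2 scale. No spot was saturated. Tests used limma 3.58.1 under R 4.3.3 (2-sided, all 8 arrays in 1 fit, Benjamini-Hochberg over 294 miRNAs). Of these steps only the limma fit, for IMB minus DOX, was tried on simulated data, drawn around the final log2 values. Given in full were the 8 brightest miRNAs and, per comparison, up to 5 per direction whose pools did not overlap. The miRNAs, lists and rules were chosen with earlier results of these data known. Alternatives covered the signal, background, scaling, filter, floor, probe and spot summary, variance model, samples fitted, blocks, the authors' table and each pool left out. Figures were drawn with matplotlib 3.10.9.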

Additional observations from a re-analysis of the deposited data

How the results depend on the processing

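No miRNA of the set was called in any comparison under the main settings or any alternative, except that 2, miR-1187 and miR-3082-5p, were called in IMB minus DOX without IMB pool 1 (-0.716 and -0.719). The share of all tested miRNAs called in that setting is not given here, so these 2 calls stand without a background. With 1 pool left out the count was 0 in IMB minus CTRL and in DOX minus CTRL and 0 to 2 in IMB minus DOX, and the median difference ran from 0.00 to 0.01, from 0.00 to 0.07 and from -0.09 to 0.00. With no scaling between arrays the median over the set was -0.29 in DOX minus CTRL and 0.20 in IMB minus DOX, beside a shift of -0.32 and 0.23 over all tested miRNAs. With normexp background correction it was 0.13 and -0.12, beside 0.17 and -0.12 over all tested. With no scaling, values of opposite sign were -0.22 for miR-2861 and -0.029 for miR-1249-3p in DOX minus CTRL, and 0.12 for miR-1982-5p, 0.17 for miR-3072-5p, 0.045 for miR-1187 and 0.038 for miR-3082-5p in IMB minus DOX. Without IMB pool 3, IMB minus DOX was 0.035 for miR-1187 and 0.034 for miR-3082-5p. The cause was not tested. For pools of different groups that share a number, deviations from the group means correlated from -0.20 to 0.48 over 230 miRNAs. For pools with different numbers they correlated from -0.48 to 0.47. The deviations of the 2 CTRL pools are mirror images, so each CTRL correlation has an opposite. Whether pools that share a number are paired cannot be told from these ranges. With the replicate block, or with the row of the slide as a block, 0 miRNAs were called in each comparison. With the replicate block the median difference was 0.00, 0.05 and -0.04. The 18 of 55 miRNAs at the floor on all arrays have no measured difference with probes averaged. Of these, miR-1198-5p and miR-1934-3p had 1 probe detected on all arrays.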
